A study of Mus musculus with 21 samples.

Results

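HS-26 is a hypersensitive site upstream of the mouse alpha-globin genes, and 2 of the 21 libraries of this chromosome conformation capture sequencing (4C-seq) series used it as the viewpoint, the fragment whose contacts are read out. One library came from fetal liver and the other from fetal brain, taken from C57BL/6 embryos at 14.5 days post coitum, and both were cut with DpnII and then Csp6I. They were chosen by their labels, which give the same viewpoint, strain, stage and enzyme pair. Livers and brains of several embryos were pooled, and whole tissue was fixed, so each profile is a mean over all cell types of the organ. There was 1 library per tissue, so no test was run and every difference below lacks a replicate check. The profiles hold no expression values, so the tissue labels could not be checked against marker genes.

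In 4C-seq, DNA that lay close to the viewpoint in the fixed nucleus is ligated to it and amplified from it, and the signal along the chromosome is read as contact. Signal normally falls with distance from the viewpoint, so a distant element that stands above its surroundings is of interest. HS-26 is known as the major enhancer of the alpha-globin cluster, one of several erythroid hypersensitive sites named by their distance upstream of the embryonic zeta-globin gene Hba-x. Fetal liver is the main site of red cell production in the fetus, whereas globin genes are silent in brain. The comparison therefore asks what HS-26 touches where alpha-globin is active and where it is not.

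Genes around the viewpoint are known here by order alone, since the gene table used is of another genome build (GRCm38.p6). On chromosome 11 it lists Il9r, Snrnp25, Rhbdf1 and Mpg on the lower-coordinate side of Nprl3, a subunit of the GATOR1 complex, whose entry carries HS-26 as a synonym. On the higher-coordinate side follow Hba-x, the adult alpha-globin gene Hba-a1, Hbq1b, the second adult gene Hba-a2, Hbq1a and Sh3pxd2b. The side that holds the globin genes is called the promoter side below.

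The promoters that face HS-26 on that side are shown because they are the targets of the comparison. RefSeq sequences of 250 bases before the start (GRCm38.p6, plus strand) are given for the adult and the embryonic gene, with 3 motifs on either strand in capitals. These are GATAA, a core that GATA factors recognise, then CCAAT, a common box of promoters, and last TATAA, the core of the TATA box.
Hba-a1: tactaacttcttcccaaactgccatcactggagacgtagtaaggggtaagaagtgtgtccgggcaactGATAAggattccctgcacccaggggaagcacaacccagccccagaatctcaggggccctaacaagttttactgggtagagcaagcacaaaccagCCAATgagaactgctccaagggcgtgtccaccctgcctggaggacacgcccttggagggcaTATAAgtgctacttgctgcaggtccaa
Hba-x: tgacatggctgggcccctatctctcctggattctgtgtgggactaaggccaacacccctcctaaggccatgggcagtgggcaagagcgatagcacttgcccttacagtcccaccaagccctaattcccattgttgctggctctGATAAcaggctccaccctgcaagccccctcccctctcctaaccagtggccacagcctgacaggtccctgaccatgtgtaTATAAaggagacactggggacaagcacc
Each of the 3 motifs occurred 1 time in the Hba-a1 promoter, and the Hba-x promoter held all but CCAAT. Of 32851 mouse promoter windows of this length, 22.6% held GATAA, a share of 33.8% held CCAAT and 22.8% held TATAA on either strand. Such matches are descriptions of these letters and not of bound sites. GATC, the site of DpnII, occurred in neither promoter, against 41.9% of all windows, and GTAC, the site of Csp6I, in neither, against 31.5%. A contact of these promoters is therefore read at fragment ends outside the printed stretch. The promoter windows of Hba-a1 and Hba-a2 shared 1 uninterrupted stretch of 297 of their 300 bases. Neither window held GATC or GTAC, so no fragment end lies within that stretch. Whether the fragment ends outside it differ between these genes was not read. The sources used here do not say how reads that match both genes were handled.

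The deposited values are a smoothed signal at 351 positions 1 kb apart, from 32000000 to 32350000 of chromosome 11 (mm9). For each running window there is a middle, a higher and a lower value, and the 5 kb window is used unless another is named. The liver profile peaked at 32149000 with 1.01, and the brain profile at 32149000 and 32150000 with 1.07. The viewpoint was placed between these peaks, at 32149250. The 326 positions over 10 kb from it are the ones compared. Sequencing depth is unknown, so no counting interval could be given.

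Away from the viewpoint the scales of both libraries parted. The mean signal beyond 10 kb was 0.00471 in liver and 0.0163 in brain, so that the liver mean was 28.96% of the brain mean. The medians were 0.000962 and 0.00782. On the deposited scale liver was higher at 10 of the 326 positions and brain at nearly all others. To compare shapes, each signal was divided by its own library's mean beyond 10 kb, which is called relative signal, and a log2 ratio of liver over brain was taken after adding 0.1 to both. The median log2 ratio over all positions was then -0.96, against -3.01 for the deposited signal and 0.01 after division by each library's median, and each ratio below is to be read beside that shift.

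The liver profile also took few values. It held 61 different values over the 326 positions and the brain profile 208. The 3 commonest liver values, 0.000962, 3.95e-05 and 0.00148, made up 72.1% of its positions, whereas the 3 commonest of brain made up 8.28%. In liver the lower value of the window was 0 at 33.4% of positions, against 0.613% in brain. Low liver values of this kind have no meaningful order. The part of this gap between the libraries in the contrasts below was not tested.

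**Figure D1:**
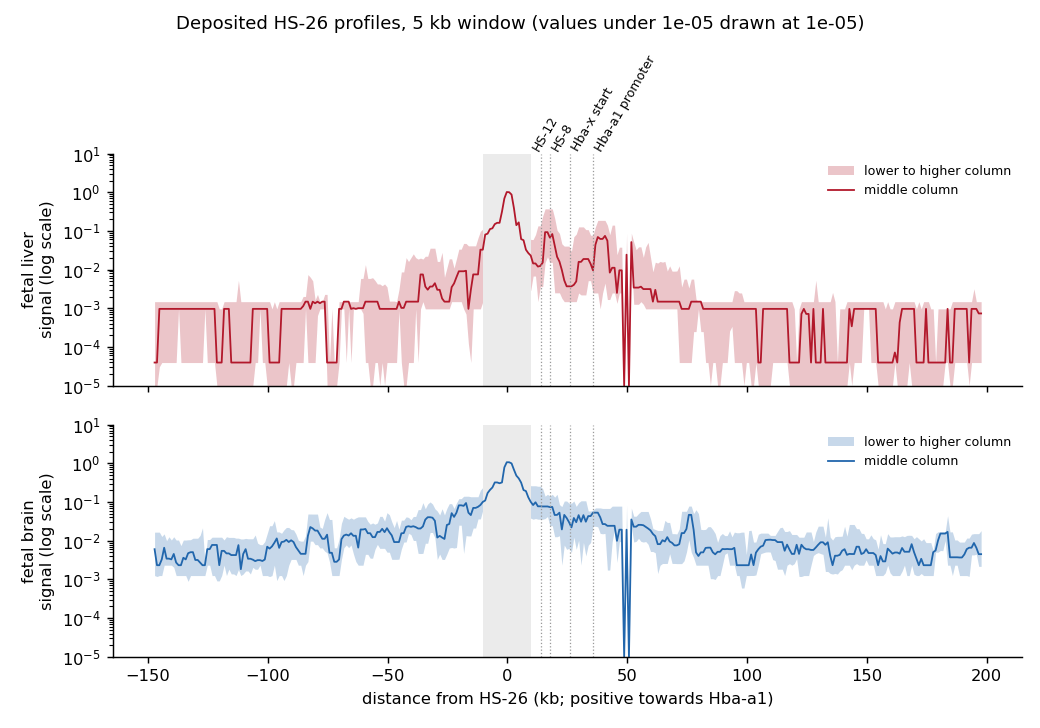
Deposited HS-26 signal against distance from the viewpoint in kb, on a log scale, for fetal liver (top) and fetal brain (bottom). Lines are the middle values of the 5 kb window, bands run from the lower to the higher value, the grey block marks the 10 kb left out, and dotted lines mark named targets. The liver line has separate peaks near HS-8 and beyond the Hba-a1 promoter. Farther out it steps between a few low values, most often 0.000962 and 3.95e-05, while the brain line falls gradually.

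Liver contacts of HS-26 were gathered into a few places on the promoter side. The 10 highest liver positions held 46.2% of the signal beyond 10 kb, and all 10 lay on the promoter side. In brain the 10 highest held 16.3%, and 4 of them lay on that side. Over distances covered on both sides, up to 147.25 kb, 81.1% of the liver signal and 53.2% of the brain signal lay on the promoter side. With 5 kb left out in place of 10 kb these shares were 63.3% in liver and 51.6% in brain. From 5 to 10 kb the liver signal was higher on the other side.

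The same contrast was seen by distance. From 10 to 25 kb the relative signal on the promoter side averaged 7.11 in liver and 3.98 in brain, and from 25 to 50 kb 4.85 in liver and 1.92 in brain. On the other side it averaged 2.04 in liver and 4.16 in brain from 10 to 25 kb, and 0.512 in liver and 1.31 in brain from 25 to 50 kb. So at both distances the promoter side was higher in liver and the other side lower. On the deposited scale liver was lower on the promoter side too, with log2 ratios of -0.95 from 10 to 25 kb and -0.45 from 25 to 50 kb. After division by the library median the other side from 10 to 25 kb turned slightly higher in liver (0.20).

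A ratio of the 2 sides needs no scaling between libraries. From 10 to 25 kb the promoter side had 3.49 times the signal of the other side in liver, and 0.956 times in brain. From 25 to 50 kb this ratio was 9.47 in liver and 1.47 in brain, and from 50 to 100 kb it was 2.65 in liver and 1.02 in brain. Brain was therefore near symmetry at 10 to 25 and 50 to 100 kb, and liver was not. Past 100 kb the sides cover unlike distances, with 98 positions up to 197.75 kb on the promoter side and 48 up to 147.25 kb on the other. The ratio there was 0.743 in liver and 1.43 in brain, so it is not like those of the nearer zones. In liver 100% of these positions on the other side and 91.8% on the promoter side held one of the 3 commonest values. From 25 to 50 kb these values filled 52% of liver positions on the other side and 0% on the promoter side. From 50 to 100 kb they filled 86% on the other side and 78% on the promoter side. The liver ratios from 25 kb outward thus rest partly on such low values.

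**Figure D2:**
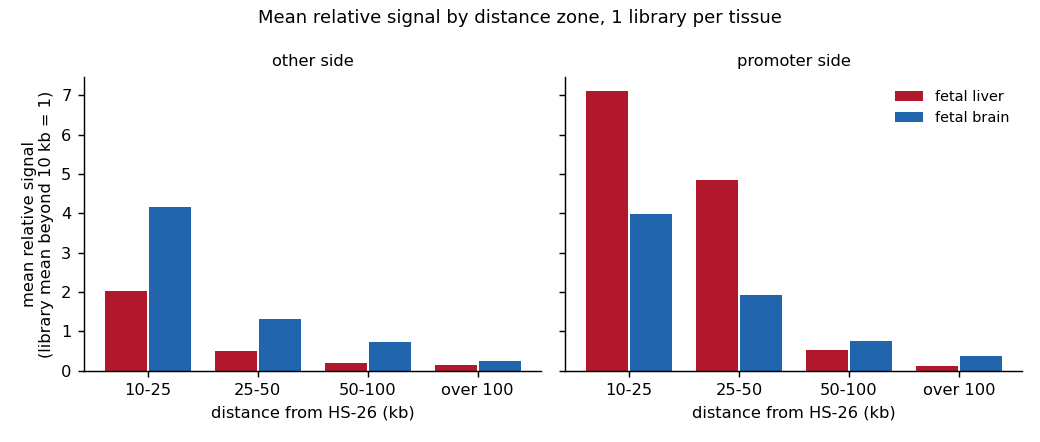
Mean relative signal (1 is the library's mean beyond 10 kb) in 4 distance zones on the side away from the globin genes (left) and on the promoter side (right), as bars from 0 for the liver and the brain library. Liver exceeds brain at 10 to 25 kb (7.11 against 3.98) and 25 to 50 kb (4.85 against 1.92) on the promoter side, and lies below it in the other 6 zones. On the deposited scale liver is below brain in all 8.

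Reach differed between tissues too. On the promoter side the deposited signal first dropped under a level of 0.1 at 5.75 kb in liver and 10.75 kb in brain, and under 0.01 at 22.75 kb in liver and 45.75 kb in brain. Both returned above 0.01 farther out on that side, with 0.0742 in liver at 40.75 kb and 0.0356 in brain at 51.75 kb. On the other side the deposited signal was first under 0.01 at 12.25 kb in liver and 45.25 kb in brain, and brain returned above 0.01 farther out, with 0.0226 at -82.25 kb. A fixed deposited level also carries the gap in scale between the libraries. Of the signal beyond 10 kb on the promoter side, 90% lay within 52.75 kb in liver and within 145.75 kb in brain. On the other side 90% lay within 104.25 kb in liver and 96.25 kb in brain, so at 90% liver was shorter on the promoter side alone. At 50% liver was shorter on both sides. The distances were 35.75 kb in liver and 37.75 kb in brain on the promoter side, and 24.25 and 32.25 kb on the other.

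Of the 326 positions, 14 were over 2-fold higher in liver in relative signal (4.29%) and 158 over 2-fold lower (48.5%). All 14 higher positions lay on the promoter side, which holds 188 of the 326. They lay between 15.75 and 51.75 kb from HS-26, in 5 runs. At 10 of the 14 liver was higher on the deposited scale as well. Of the 158 lower positions, 79.1% held one of the 3 commonest liver values, near the 72.1% of all 326 positions. None of the 14 higher positions did. Divided by the median in place of the mean, 64 positions were higher and 84 lower, so the balance of the counts follows the scaling. Lower positions made up 61.6% of the other side and 38.8% of the promoter side.

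**Figure D3:**
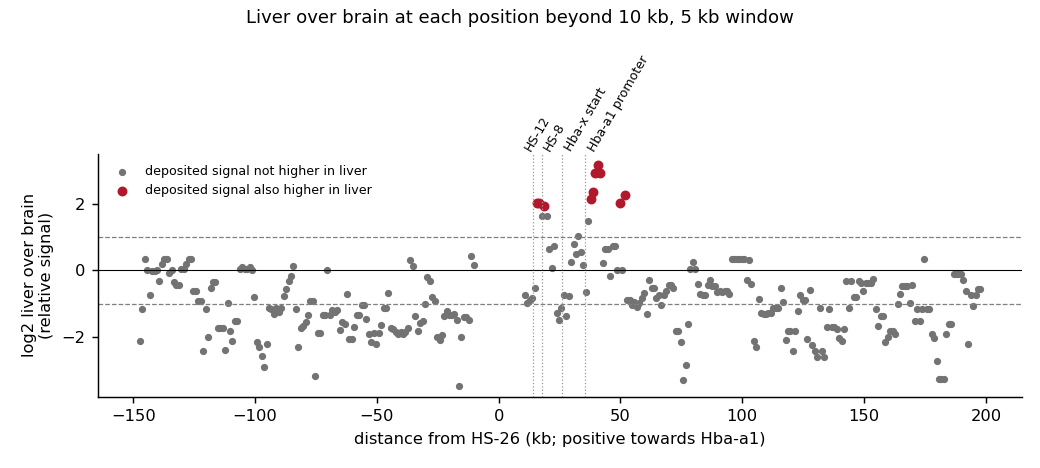
Log2 ratio of liver over brain in relative signal at each of 326 positions, against distance from HS-26 in kb. Dashed lines mark 2-fold, and the 10 large points are positions where the deposited signal was higher in liver too. These lie from 15.75 to 51.75 kb on the promoter side, around HS-8 and beyond the Hba-a1 promoter.

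Highest among liver contacts was a peak at 32165000 and 32166000, beside HS-8 and HS-12. These are erythroid hypersensitive sites placed 18 and 14 kb from HS-26 by the distances in their names. At 32165000 the deposited signal was 0.0926 in liver, within a window range of 0.0151 to 0.371, and 0.0770 in brain, within 0.0375 to 0.142. In relative signal this was 19.7 in liver and 4.74 in brain, a log2 ratio of 2.03. The 2 ranges overlapped, with the middle liver value above the brain value. At 32166000 the middle value of each tissue was the same as at 32165000. In the 2 kb window 32165000 was empty in both tissues.

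Over 2-fold higher positions ran from 32165000 to 32169000, with a mean relative signal of 16.0 in liver and 4.30 in brain. Within 5 kb of HS-8 the relative signal averaged 9.61 in liver and 3.84 in brain (log2 ratio 1.30), and 5 of its 10 positions were over 2-fold higher. Within 5 kb of HS-12 it averaged 9.05 in liver and 5.04 in brain, a log2 ratio of 0.83 that did not reach 2-fold. In deposited signal HS-8 averaged 0.0452 in liver and 0.0624 in brain, and HS-12 0.0426 in liver and 0.0820 in brain. Both windows share positions, since the sites are 4 kb apart, so they are not separate measurements. HS-31 and HS-21 lie 5 kb from the viewpoint and inside the stretch left out.

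The second liver maximum, at 32190000, lay 5.106 kb beyond the Hba-a1 viewpoint and just outside the window set for that promoter. Hba-a1 encodes adult alpha-globin. Within 5 kb of the Hba-a1 promoter viewpoint (32179894 to 32189894, centred 35.64 kb from HS-26) the relative signal averaged 7.06 in liver and 2.60 in brain, a 2.72-fold difference and a log2 ratio of 1.41. Single positions there ran from 2.03 to 14.8 in liver and from 1.66 to 3.28 in brain, so the tissues overlapped at the low end. On the deposited scale the order was the other way, with 0.0333 in liver and 0.0422 in brain (log2 ratio -0.34). Mean window ranges were 0.00279 to 0.131 in liver and 0.0133 to 0.0783 in brain.

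Measured against the same library's signal at the mirrored distance on the other side, the Hba-a1 window was 9.56 times higher in liver and 1.46 times in brain. Its mean stood at percentile 93.4 of all windows of that width beyond 10 kb in liver and at 90.5 in brain. So it ranked high in both tissues, and by this measure, added after the data were seen, liver exceeded brain. Set against a fitted decay with distance, the log2 ratio of liver over brain was 0.81 with both sides in the fit and 0.26 with the target's side alone, both under 2-fold.

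Where the liver excess lay relative to the promoter changed with the window. At 32185000, 0.106 kb from the promoter viewpoint, the relative signal in the 5 kb window was 2.03 in liver and 3.27 in brain. In the 2 kb window it was 10.9 in liver and 4.08 in brain, and in the 10 kb window 7.22 in liver and 2.56 in brain. In the 5 kb window all 6 positions from 32186000 to 32191000, 1.106 to 6.106 kb beyond it, were over 2-fold higher in liver, with a mean of 12.99 in liver and 2.31 in brain. Of these, 32186000, 32187000 and 32191000 were empty in both tissues in the 2 kb window. The largest ratio of the 5 kb profile was at 32190000, with 15.8 in liver and 1.66 in brain (log2 ratio 3.17). Its deposited signal was 0.0742 in liver, within 0.00447 to 0.187, and 0.0270 in brain, within 0.0155 to 0.0685, so the ranges overlapped. Averaging over 2 kb to either side of the promoter in place of 5 kb gave a log2 ratio of 0.60.

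Beyond this, single positions at 32199000 and 32201000 were higher in liver, at 5.15 and 10.9 in relative signal, against 1.19 and 2.19 in brain. Between and beside them, 32198000 and 32200000 were empty in both tissues. In the 2 kb window the 10 positions from 32194000 to 32203000, 9.106 to 18.106 kb beyond the Hba-a1 viewpoint, were empty in both libraries, the longest shared empty stretch. The signal at 32199000 and 32201000 thus appeared in the 5 kb window and not in the 2 kb one. Hbq1b, Hba-a2 and Hbq1a follow Hba-a1 in the gene table, and which of them lies at these positions was not read from another build.

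The embryonic gene did not share in the liver peaks. Around the Hba-x start, placed 26 kb from HS-26 by the name of the viewpoint, the relative signal averaged 1.75 in liver and 2.19 in brain (log2 ratio -0.31). It ran from 0.783 to 3.403 in liver and from 1.21 to 3.27 in brain, so the tissues overlapped. No position of that window was over 2-fold higher in liver, and 4 of 10 were over 2-fold lower. Its deposited signal averaged 0.00826 in liver and 0.0357 in brain. In liver the Hba-x window thus formed a dip between the peak near HS-8 and the one past Hba-a1.

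Brain maxima were set beside those of liver. By the rule of at least 20 kb between maxima, 4 of 5 liver maxima had a brain maximum within 10 kb. The pairs were 32165000 with 32161000, 32190000 with 32187000, 32138000 with 32132000 and 32113000 with 32108000. The share of all positions that lie within 10 kb of a brain maximum was not counted, so 4 of 5 has no background. At 32161000 the deposited brain signal was 0.0989, against 0.101 at 9.75 kb, and the log2 ratio was -0.97. From 32164000 to 32166000 brain stayed at 0.0770, so no brain maximum lay at the liver peak near HS-8. At the brain maximum nearest to Hba-a1, 32187000, the relative signal was 14.8 in liver and 3.28 in brain. A maximum near Hba-a1 was therefore present in both tissues and differed in height.

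One brain maximum had no liver partner. At 32225000, 75.75 kb from HS-26 and 40.106 kb beyond the Hba-a1 viewpoint, the deposited signal was 0.000962 in liver and 0.0467 in brain. In relative signal this was 0.204 in liver and 2.87 in brain (log2 ratio -3.29). The window ranges were 3.95e-05 to 0.00334 in liver and 0.0106 to 0.0788 in brain and did not overlap on the deposited scale. In relative signal they did, with a higher value of 0.708 in liver and a lower value of 0.651 in brain. The liver value was the commonest of that library. The liver maximum at 32211000 likewise had no brain maximum within 10 kb, with a relative signal of 0.635 in liver and 0.810 in brain.

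On the other side the largest deficit in liver was at 32133000 (-16.25 kb), with a relative signal of 0.204 in liver and 3.27 in brain (log2 ratio -3.47). The liver value there, 0.000962, was the commonest of that library. Deposited window ranges overlapped, with 0.000119 to 0.0411 in liver and 0.0133 to 0.142 in brain. In the 2 kb window the position was empty in both tissues. A run of 14 positions from 32124000 to 32137000 averaged 1.21 in liver and 3.75 in brain, and a run of 16 from 32088000 to 32103000 averaged 0.247 in liver and 0.985 in brain. The next genes on that side in the table are not globin genes. They include Mpg, a DNA repair glycosylase, Rhbdf1, an inactive rhomboid protein, Snrnp25, a component of the minor spliceosome, and Il9r, the interleukin 9 receptor, and no position was read for them. At 32138000, 11.25 kb from the viewpoint, liver had its highest position on that side, with 6.93 in liver and 5.17 in brain.

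Window ranges set a stricter standard. After division by each library's mean, the lower value of one tissue exceeded the higher value of the other at 20 of 326 positions. Liver was lower at 19 of them, 11 on the other side and 8 on the promoter side, none nearer than 65.25 kb to HS-26. It was higher at 1, 32023000, where both liver bounds were commonest values. Most of the 19 lower positions held a commonest liver value too, such as 3.95e-05 at 32075000 and 0.00148 at 32081000. At 32069000 and 32071000 the liver value was 0.00135, which is not one of these. Neither of the promoter-side liver peaks reached this standard. Undivided, the ranges were apart with liver lower at 134 positions and with liver higher at 0.

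Smoothing mattered for the size of the peaks. In the 2 kb window the relative signal at 32167000, 17.75 kb from HS-26, reached 52.96 in liver and 9.27 in brain. The 2 kb value of 32189000 was 31.5 in liver and 3.11 in brain. In the 10 kb window these positions had 9.34 and 12.2 in liver and 4.38 and 2.43 in brain. Of 329 positions in the 2 kb window, 81 were empty in liver and 75 in brain, and all 75 were empty in liver too. Peaks were thus higher, and empty positions more frequent, in the narrow window.

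Across all 48 windows from 2 to 49 kb the Hba-a1 promoter stayed above 0 in log2 ratio of liver over brain, from 0.38 at 49 kb to 1.69 at 2 kb. It was over 2-fold higher in 11 windows, none wider than 13 kb. No position was over 2-fold higher in liver in 10 windows between 31 and 41 kb, nor was any in all windows from 2 to 20 kb, whereas 22 were over 2-fold lower in all of those. HS-8 was also above 0 in 48 of 48 windows and over 2-fold higher in 9. HS-12 ranged from 0.46 to 0.94 and was over 2-fold higher in 0 windows. Hba-x took both signs, from -0.56 at 9 kb to 0.79 at 48 kb. Neighbouring windows share their data, and wide windows take in the viewpoint itself.

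**Figure D4:**
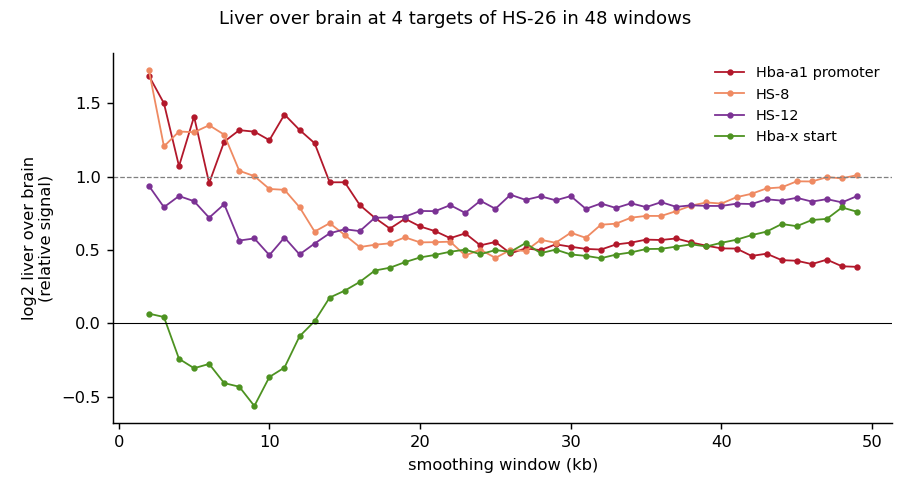
Log2 ratio of liver over brain in relative signal, averaged within 5 kb of 4 targets, against the width of the smoothing window in kb. The dashed line marks 2-fold. The Hba-a1 promoter and HS-8 lie highest in narrow windows, at 1.69 and 1.73 for 2 kb, and Hba-x is below 0 between 4 and 12 kb.

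In the 13 windows from 2 to 14 kb the highest liver position between 25 and 75 kb on the promoter side lay 1.106 to 5.106 kb beyond the Hba-a1 viewpoint, with a relative signal of 10.5 to 31.5. The highest brain position lay from -3.894 to 2.106 kb of it, with 2.65 to 4.41. From 15 to 27 kb the liver position moved to between 5.106 and 11.106 kb beyond it, and from 28 to 49 kb to between -5.894 and -9.894 kb. The brain position lay between -5.894 and -9.894 kb in all windows from 15 kb up, so in the widest windows both tissues were highest at the near edge of the stretch searched. On the deposited scale liver was higher at some position in 15 windows, up to 16 kb, and at none in wider ones. The share of signal on the promoter side was 70.1 to 83.6% in liver and 50.1 to 55.1% in brain over the 48 windows, without overlap. Spearman's rho of the 2 profiles across positions ran from 0.733 to 0.894, and the positions share both their distance from the viewpoint and their smoothing.

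Looking back from the Hba-a1 promoter, which was a viewpoint of its own in separate libraries, HS-26 stood at 13.9 in relative signal in liver and 2.75 in brain, a log2 ratio of 2.29. There the deposited signal was higher in liver too, with 0.574 in liver and 0.0844 in brain. The mean beyond 10 kb was 0.0414 in liver and 0.0307 in brain for that viewpoint, whereas the medians were 0.000793 in liver and 0.0169 in brain, each over that library's own positions. Liver was higher as deposited at 48 of 326 positions. The liver library made with 1/16 template had a relative signal of 9.03 at HS-26, against 2.98 in brain, each scaled over its 375 positions. That log2 ratio was 1.57, or 3.03-fold in place of 5.04-fold. The brain value of 2.75 was scaled over the 326 positions matched to the full-template liver library. The direction of the relative difference was the same from both ends, and that of the deposited one was not.

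Of 306 positions over 10 kb from both viewpoints, 7 were over 2-fold higher in liver from HS-26 and 5 from Hba-a1, and 2 from both. The 2 were 32165000 and 32166000 near HS-8, with log2 ratios of 2.03 and 2.03 from HS-26 and 1.65 and 1.86 from Hba-a1. They are 2 of the 7 (HS-26) and 2 of the 5 (Hba-a1). From HS-26 both held the same middle value in each tissue, so there they are not separate measurements. Over the positions more than 50 kb beyond Hba-a1 the median log2 ratio was -1.12 from HS-26 and -2.14 from Hba-a1, and 0 positions there were over 2-fold higher from either end.

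**Figure D5:**
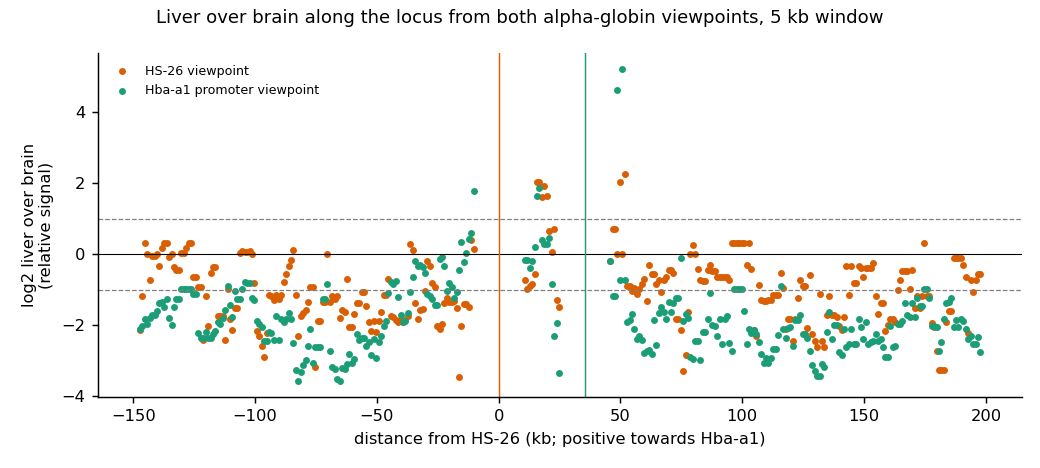
Log2 ratio of liver over brain in relative signal from the HS-26 viewpoint and from the Hba-a1 promoter viewpoint, at 306 positions over 10 kb from both, against distance from HS-26 in kb. Vertical lines mark the viewpoints and dashed lines 2-fold. Both sets rise above 0 between the viewpoints near HS-8 and lie mostly below 0 elsewhere.

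A pair of liver libraries of the Hba-a1 promoter, with 1/16 and with full template, shows what libraries of one tissue and viewpoint can differ by. Of 325 positions, 65.8% were over 2-fold higher with 1/16 template and 2.46% over 2-fold lower. The share of HS-26 positions over 2-fold lower in liver, 48.5%, lies under the first of these values. Whether a difference of this kind between libraries has a part in the HS-26 counts was not tested. The 3 commonest values filled 63.2% of positions with 1/16 template and 32.2% with full template. At HS-26 itself that pair had relative signals of 8.15 with 1/16 and 13.9 with full template, a log2 ratio of -0.76. Both were scaled over the 325 shared positions, whereas the 9.03 given above for 1/16 template was scaled over that library's own positions. The tissue ratio at the Hba-a1 promoter, 1.41, was larger in size, but the pair comes from another viewpoint.

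From HS-2, a site of the beta-globin control region that was also profiled in both tissues, 7.47% of 375 positions were over 2-fold higher in liver and 66.9% over 2-fold lower. From Hba-a1 these shares were 7.36% and 76.4%. The share of signal on the side of the partner gene was 61.2% in liver and 45.3% in brain for HS-2. The 3 viewpoints thus each had few positions higher in liver and many lower, and HS-26 had the smallest of the 3 shares in either direction. Whether these shares differ beyond library spread was not tested.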

How the data were processed

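Members and targets were chosen with earlier results of these data known. The authors deposited 1 file per library with a smoothed and normalized signal in running windows of 2 to 49 kb. From the values, the signal is about 1 at the viewpoint, and each window has a middle, a higher and a lower column whose quantile levels the sources used here do not state. The submitters' processing notes name mm9 as the build. For aligner, filters, read numbers and pooling of runs nothing is given in the sources used here, and depth is unknown.

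From the middle column of the 5 kb window, the viewpoint was set at the median peak of its libraries and positions within 10 kb were left out. Each library's signal was scaled to its mean over the remaining positions, and log2 ratios used a pseudocount of 0.1 (10% of that mean). Ratios over 2-fold were counted, and values under 1e-09 were empty. Targets were averaged over 5 kb to either side. The Hba-a1 promoter was its own viewpoint, and HS elements and Hba-x were placed by the distances in their names. Named positions are up to 5 maxima per library, at least 20 kb apart in the top 25% of signal, and the largest ratios at least 10 kb apart. Others named for a run, an empty stretch or a window were chosen after their values were seen. Grids of other viewpoints were matched within 500 bp. Observed over expected from a monotone decay was kept as an alternative, because such a decay pools low stretches with peaks beyond them. Of the series' libraries, 7 were used. Python 3.11.15, numpy 2.4.6, pandas 2.3.3, scipy 1.17.1 and matplotlib 3.10.9 were used. The ratio and decay functions were tested on simulated, unsmoothed profiles. The ratios there were divided by the median and had no pseudocount, so the main setting with the mean and 0.1 was not covered.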

Additional observations from a re-analysis of the deposited data

How the results depend on the processing

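No paired analysis was possible because each tissue had 1 library. Depth, the spread between animals and the spread between HS-26 libraries are unknown, and settings below were called by 2-fold, by a 1.5-fold change of a count, or by the template pair's shift in share (14.5 percentage points).

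The Hba-a1 promoter's log2 ratio of 1.41 turned to -0.34 on the deposited scale. It stayed above 0 and under 2-fold with the 20 kb window (0.66), the 49 kb window (0.38), the lower column (0.58), 2 kb to either side (0.60) and observed over expected with a decay on both sides (0.81) or on the target's side (0.26). In 11 other settings it stayed over 2-fold, among them division by the mirrored distance (2.71), added after the data were seen.

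The 14 higher positions became 0 in 10 windows between 31 and 41 kb, 7 with the 49 kb window, 9 with 20 kb left out, 3 as deposited, 64 after division by the median, 22 with the higher column, 37 with the lower column, 9 at 4-fold and 62 after division by the mean over 50 kb from the viewpoint, a setting added later. The 158 lower positions became 90 with the 20 kb window, 70 with the 49 kb window, 291 as deposited, 84 after division by the median, 42 at 4-fold and 86 by the mean over 50 kb. Higher calls thus made up 8.14% of calls in the main setting, 43.2% by the median and 41.9% by the mean over 50 kb.

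Positions with separate ranges and liver higher, 1 in the main setting, numbered 2 at 2 kb, 0 at 10, 20 and 49 kb, 2 with 20 kb left out, 0 as deposited and 3 by the median. Those with liver lower, 19, numbered 2 at 10 kb, 0 at 20 and 49 kb, 134 as deposited and 7 by the median.

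The liver share on the promoter side fell to 63.3% when 5 kb was left out, where positions from 5 to 10 kb enter. There the deposited liver signal was higher on the other side. It went from 0.149 at -5.25 kb to 0.0802 at -9.25 kb, and from 0.0613 at 5.75 kb to 0.0230 at 9.75 kb. Brain went from 0.322 to 0.110 and from 0.319 to 0.101 at the same positions. The brain share moved by less than the template pair's shift in each setting.

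By zone, the promoter side from 10 to 25 and 25 to 50 kb turned to -0.93 and -0.44 as deposited. Division by the median turned 3 zones, to 0.20 (other side, 10 to 25 kb), 0.72 (promoter side, 50 to 100 kb) and 0.36 (other side, over 100 kb), and the lower column turned the second of these to 0.50. The scale set between libraries therefore decides these signs; why the libraries differ in scale was not tested.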
